A study of Mus musculus with 3 samples.

Results

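The genes of the SMC (structural maintenance of chromosomes) complexes were followed in NIH3T3 cells, an immortalised mouse fibroblast line, by reading every array probe set of 10 genes. They are the cohesin subunits Smc1a, Smc3, Rad21, Stag1 and Stag2, the cohesin loader Nipbl, the condensin ATPases Smc2 and Smc4, and Smc5 and Smc6. These genes had 37 probe sets that the platform annotation ties to exactly 1 gene symbol, of 34945 such probe sets and 18193 genes in all. The genes were chosen because the signal of Smc3 was far higher on 1 of the control arrays, so all differences of that array from the others are given as a description, with no test.

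The study compared cells carrying an shRNA (a hairpin RNA that silences its target) directed at retinol saturase, Retsat, with cells carrying the empty vector. Retsat saturates a double bond of retinol. It forms part of an RNA interference screen for resistance to oxidative stress. There were 1 RetSat shRNA array, numbered 2 in its title, and 2 empty-vector arrays, numbered 1 and 2. The RetSat shRNA cells are labelled as highly resistant to t-BHP (tert-butyl hydroperoxide, an oxidant), and neither their culture nor any treatment is stated. The labels of the empty-vector cells give no treatment, culture in DMEM with calf serum, and basal expression. The labels do not say whether the 2 control arrays came from separate cultures, so their spread may be technical, nor whether the shRNA cells were 1 clone or a pool.

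SMC proteins are long coiled-coil ATPases that pair into ring-shaped complexes able to hold and fold DNA. Cohesin joins Smc1a and Smc3 through the kleisin Rad21, holds sister chromatids together until anaphase and extrudes chromatin loops in interphase. Condensin, built on Smc2 and Smc4, compacts chromosomes for mitosis, and the Smc5-Smc6 complex acts in DNA repair and at stalled replication forks.

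The values are deposited intensities in signal units, scaled so that the trimmed mean was the same on all 3 arrays. Differences are given as log2(signal + offset), with an offset of 10.2, and understate the change of dim probe sets. A probe set was tested when its mean log2 value reached the median of all probe sets, which held for 19518 probe sets (10843 genes) and for 31 of the 37 here. The 6 that did not pass were 4 of Smc2, 1 of Smc1a and 1 of Nipbl. Median signals of all probe sets were 35.7 on RetSat shRNA, 39.4 on empty vector 1 and 37.9 on empty vector 2, and no detection calls were used. Of the 37 probe sets, 15, 3 and 15 lay below the median of these arrays, so many low readings stood near the floor.

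The brighter probe set of Retsat read 69.5 on RetSat shRNA, against 415.9 and 495.9 on empty vectors 1 and 2. Its other probe set read 17.7 on RetSat shRNA, against 107.0 and 90.3, so the targeted transcript was low on the array that carries its label. Empty vector 1 stood apart from the other arrays across the transcriptome. Log2 signals of the tested probe sets correlated at r = 0.981 between RetSat shRNA and empty vector 2, at 0.913 between RetSat shRNA and empty vector 1, and at 0.914 between the control arrays (across probe sets, which are not independent replicates). The 9 fibroblast markers were all above the median on every array, with a summed signal of 72344.9 on RetSat shRNA, 72980.1 on empty vector 1 and 71624.0 on empty vector 2. Single markers differed. By its brightest probe set, Pdgfra read 1886.7 on RetSat shRNA against 4732.8 and 2172.5 on empty vectors 1 and 2. Another was near level, at 446.8 against 456.9 and 491.0, and the dimmest read 247.5 against 1016.3 and 307.3. The brightest Pdgfrb probe set read 2455.4 on RetSat shRNA against 1287.0 and 2548.0. No epithelial, leukocyte or endothelial marker exceeded 142 on any array.

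Nearly every gene of the set read several-fold higher on empty vector 1 than on RetSat shRNA and empty vector 2 by its brightest probe set. Of the 31 tested probe sets, 25 were at least 2-fold higher on empty vector 1 than on both other arrays and none was at least 2-fold lower. Over all tested probe sets 9.5% were higher and 1.96% lower by this rule, and the choice of genes used this contrast, so nothing is read from the difference. All 10 genes had at least 1 probe set at least 2-fold higher on empty vector 1, compared with 11.8% of all tested genes. A share of this kind rises with the number of probe sets a gene has. By brightest probe sets alone it was 9 of the 10 genes, beside 7.92% of all tested genes. Over all probe sets the higher ones made up 82.9% of both kinds, and 68.6% after median centring. Empty vector 1 was the highest array, by any margin, for 29 of the 31 (39.2% of all) and the lowest for 2 (46.2% of all). Rad21 was the 1 gene whose brightest probe set ran the other way.

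**Figure D1:**
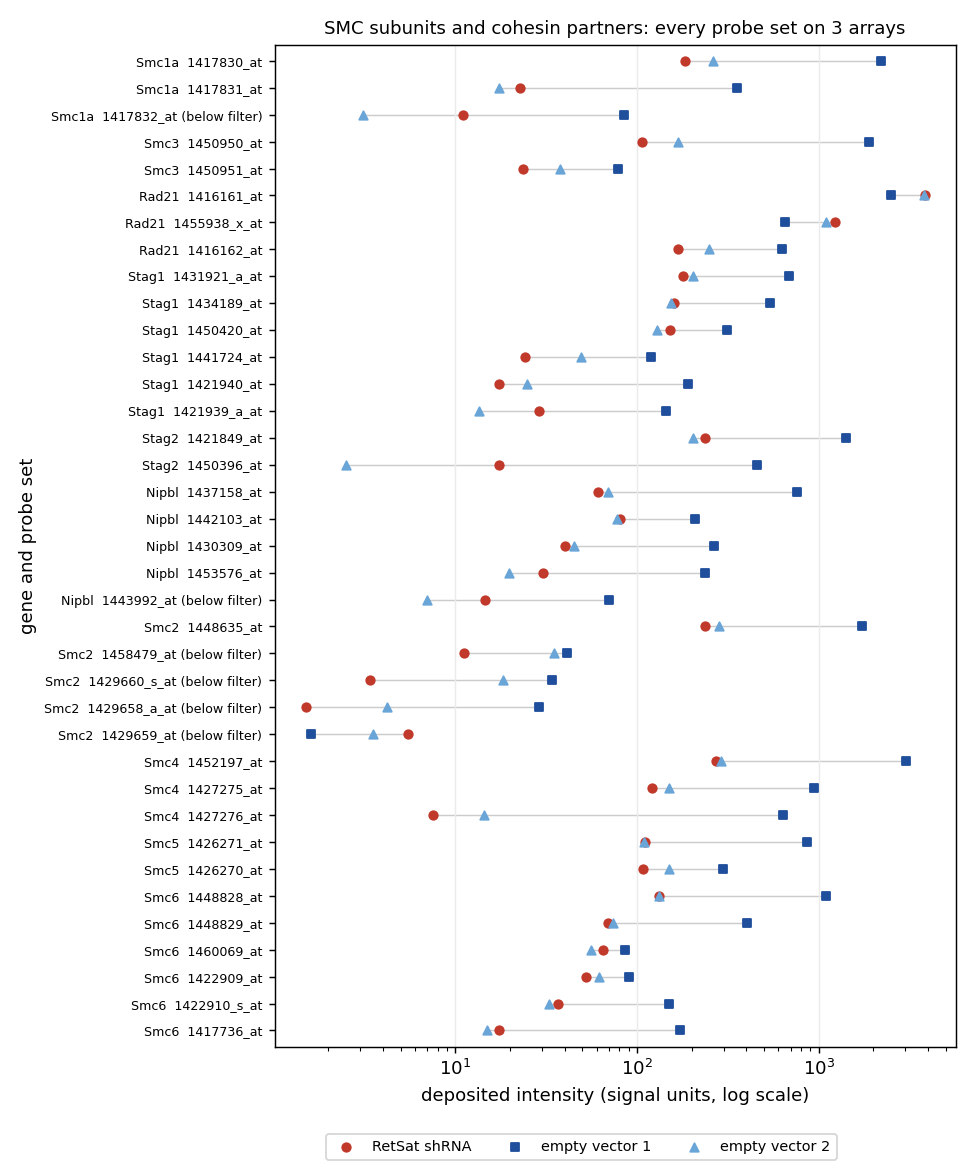
Deposited intensity (signal units, log scale) of all 37 probe sets of the 10 genes, grouped by complex and ordered by brightness within a gene, with 1 point for each array. Among the 31 tested probe sets empty vector 1 lies farthest right for all but the brightest and second Rad21 probe sets, and among the others it does not for 1 very dim Smc2 probe set. RetSat shRNA and empty vector 2 lie nearer each other for most, but stand several-fold apart for some dim ones of Stag2, Smc1a and Smc2.

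The ATPases Smc1a and Smc3 form the arms of the cohesin ring. The brightest probe set of Smc3 read 106.4 on RetSat shRNA, against 1885.5 on empty vector 1 and 167.6 on empty vector 2. The shRNA array thus lay below both controls, and the control arrays were themselves far apart (1027 ± 1215, SD, n = 2). Empty vector 1 was 17.7 times RetSat shRNA and 11.2 times empty vector 2, and ranked 20 of the 19518 tested probe sets by its log2 difference from the mean of the other arrays, 3.72. The second Smc3 probe set, made from the same source sequence per the platform annotation, read 23.4 on RetSat shRNA against 78.9 and 37.5 on empty vectors 1 and 2. It had the same order of arrays with a smaller difference, 1.15 on the log2 scale. The log2 differences of RetSat shRNA from empty vector 2 were -0.61 and -0.51 for the 2 probe sets.

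For Smc1a only the brightest probe set showed the same order of arrays, at a similar level. Its brightest probe set read 182.6 on RetSat shRNA, against 2193.6 and 263.4 on empty vectors 1 and 2, where the control mean was 1229 ± 1365 (SD, n = 2). The next read 22.8 on RetSat shRNA against 353.0 and 17.3, and the third, below the filter, read 11.0 against 85.0 and 3.1. RetSat shRNA was below both controls for the brightest probe set and between them for the others. Against the mean of the other arrays, empty vector 1 was higher by 3.26, 3.59 and 2.50 on the log2 scale.

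The start regions of the ring ATPases and of the condensin ATPase Smc2 are shown because these genes shared the high signal on empty vector 1. Sequences are from RefSeq (mouse build GRCm38.p6), 5′ to 3′ on the gene's strand, and cover 250 bases before to 50 bases after the annotated start. Capitals mark the motifs found, as listed after the sequences. The Smc1a window is chrX:152016178-152016477, plus strand, the Smc3 window is chr19:53600146-53600445, plus strand, and the Smc2 window is chr4:52438971-52439270, plus strand.
Smc1a: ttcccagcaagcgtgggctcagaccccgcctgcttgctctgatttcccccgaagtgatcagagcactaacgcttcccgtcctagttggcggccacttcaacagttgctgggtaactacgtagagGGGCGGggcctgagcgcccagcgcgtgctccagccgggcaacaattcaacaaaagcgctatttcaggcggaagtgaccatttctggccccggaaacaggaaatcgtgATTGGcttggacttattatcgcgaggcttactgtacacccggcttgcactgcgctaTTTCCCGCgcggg
Smc3: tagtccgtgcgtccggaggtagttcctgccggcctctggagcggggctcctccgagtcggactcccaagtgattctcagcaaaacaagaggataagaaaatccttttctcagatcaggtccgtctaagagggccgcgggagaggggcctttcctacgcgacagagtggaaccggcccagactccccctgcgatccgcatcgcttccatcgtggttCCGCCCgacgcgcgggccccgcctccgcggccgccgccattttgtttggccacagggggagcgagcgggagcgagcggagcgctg
Smc2: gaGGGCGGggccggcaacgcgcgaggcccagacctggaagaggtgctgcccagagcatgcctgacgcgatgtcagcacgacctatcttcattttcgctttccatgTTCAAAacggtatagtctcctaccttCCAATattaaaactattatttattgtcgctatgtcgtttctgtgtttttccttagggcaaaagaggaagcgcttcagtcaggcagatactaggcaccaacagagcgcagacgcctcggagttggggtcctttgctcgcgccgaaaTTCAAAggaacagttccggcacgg

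Windows were found for 6 of the 10 genes (Smc1a, Smc2, Smc3, Smc5, Smc6 and Stag1). They were searched on both strands for the NF-Y box CCAAT, the cell cycle element core TTTGAA, the GC box GGGCGG and the E2F-type sequences TTTGGCGC and TTTCCCGC, and no 2 matches shown overlap. A GC box was present in 5 of the 6, and in 35.7% of all 32851 windows in the table. CCAAT was present in 3 (Smc1a, Smc2 and Stag1) and in 37.4% of all. TTTGAA was present in 2 (Smc2 and Smc6) and in 17.9% of all. TTTCCCGC was present in 2 (Smc1a and Stag1) and in 1.07% of all, while TTTGGCGC was present in 0 and in 0.514% of all. The Smc3 window held 1 match, a GC box that starts 35 bases before the annotated start on the reverse strand. The Smc5 window held none, and it and the Stag1 window lie at starts inside the annotated gene. The 32851 windows were not limited to genes tested here or matched for base content, so nothing is read from the shares. These matches are letters in a window and do not show that a factor binds there. Their part in the differences between arrays was not tested.

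Rad21, the kleisin that closes the cohesin ring and is cut by separase at anaphase, differed among its own probe sets. The brightest read 3824.0 on RetSat shRNA, against 2514.5 and 3807.8 on empty vectors 1 and 2 (control mean 3161 ± 914.5, SD, n = 2). A second, whose name marks possible cross-hybridisation, read 1227.1 on RetSat shRNA against 650.3 and 1097.2. On both, empty vector 1 was the lowest array, by -0.60 and -0.83 on the log2 scale. The third probe set read 168.8 on RetSat shRNA against 631.5 and 247.3, so there empty vector 1 was the highest array, by 1.58. The first and the third were made from the same source sequence per the platform annotation, and the deposited values do not say which part of the transcript each one reads. Such a split, with 1 probe set at least 2-fold higher on empty vector 1 than on both other arrays and another lower than on both, was seen in 163 of the 5131 genes with at least 2 tested probe sets (3.18%), or 18.5% of the 879 of them with a probe set of the first kind. Among the 10 genes it was seen in Rad21 alone.

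Stag1 and Stag2 are alternative cohesin subunits that bind Rad21. The brightest Stag1 probe set read 178.0 on RetSat shRNA, against 687.6 and 202.5 on empty vectors 1 and 2. All 6 Stag1 probe sets were tested, and all were at least 2-fold higher on empty vector 1 than on both other arrays, by 1.11 to 2.70 on the log2 scale. For Stag2 the brighter probe set read 237.0 on RetSat shRNA against 1415.2 and 203.0, and the other read 17.4 against 455.0 and 2.5. RetSat shRNA lay between the controls for both Stag2 probe sets, and the reading of 2.5 is near the floor. Empty vector 1 exceeded the mean of the other arrays by 2.63 and 4.64 on the log2 scale.

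Nipbl, which loads cohesin onto chromatin and activates its ATPase, had 5 probe sets. The brightest read 61.3 on RetSat shRNA, against 760.0 and 69.0 on empty vectors 1 and 2. The other tested ones read 80.4, 39.9 and 30.4 on RetSat shRNA, against 208.1, 266.3 and 235.3 on empty vector 1 and 77.6, 44.7 and 19.6 on empty vector 2. All 4 were more than 2-fold higher on empty vector 1 than on the other arrays. RetSat shRNA lay below both controls for 2 of them and between the controls for the others. Nipbl spans 175.5 kb (mouse build GRCm38.p6, chr15:8289824-8465315), the second longest of the 10 genes after Stag1.

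Smc2 and Smc4 pair in both condensin complexes. The bright Smc2 probe set read 235.9 on RetSat shRNA, against 1740.3 and 281.9 on empty vectors 1 and 2, while the other 4 never exceeded 41.1 on any array and were not tested. The 3 Smc4 probe sets read 270.4, 120.1 and 7.5 on RetSat shRNA, against 3031.8, 942.1 and 631.7 on empty vector 1 and 291.5, 149.2 and 14.4 on empty vector 2. RetSat shRNA was the lowest array for all 4 tested probe sets of these 2 genes (29.2% of all tested probe sets), and empty vector 1 the highest (39.2%). The choice of genes used the high signal on empty vector 1, so nothing is read from these counts. The third Smc4 probe set had the largest difference of empty vector 1 among the 31, at 4.94 on the log2 scale, where the other arrays read near the floor. For the brightest Smc4 probe set the difference was 3.39, and for Smc2 it was 2.71.

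Smc5 and Smc6 form the third SMC pair. The probe sets of Smc5 read 111.1 and 108.0 on RetSat shRNA, against 859.2 and 299.0 on empty vector 1 and 109.3 and 150.5 on empty vector 2. The first was level between RetSat shRNA and empty vector 2 (log2 difference 0.02), and in the second RetSat shRNA was the lowest array (-0.44). For Smc6 the brightest probe set read 131.9 on RetSat shRNA against 1101.5 and 132.8. Its 6 probe sets spread widely in how far empty vector 1 lay above the mean of the others, from 0.45 to 2.96 on the log2 scale. The smallest differences came from probe sets that read 64.7 and 52.5 on RetSat shRNA, against 86.1 and 90.3 on empty vector 1 and 56.0 and 61.8 on empty vector 2. The 3 probe sets made from 1 common source sequence were at 2.96, 2.33 and 2.78.

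**Figure D2:**
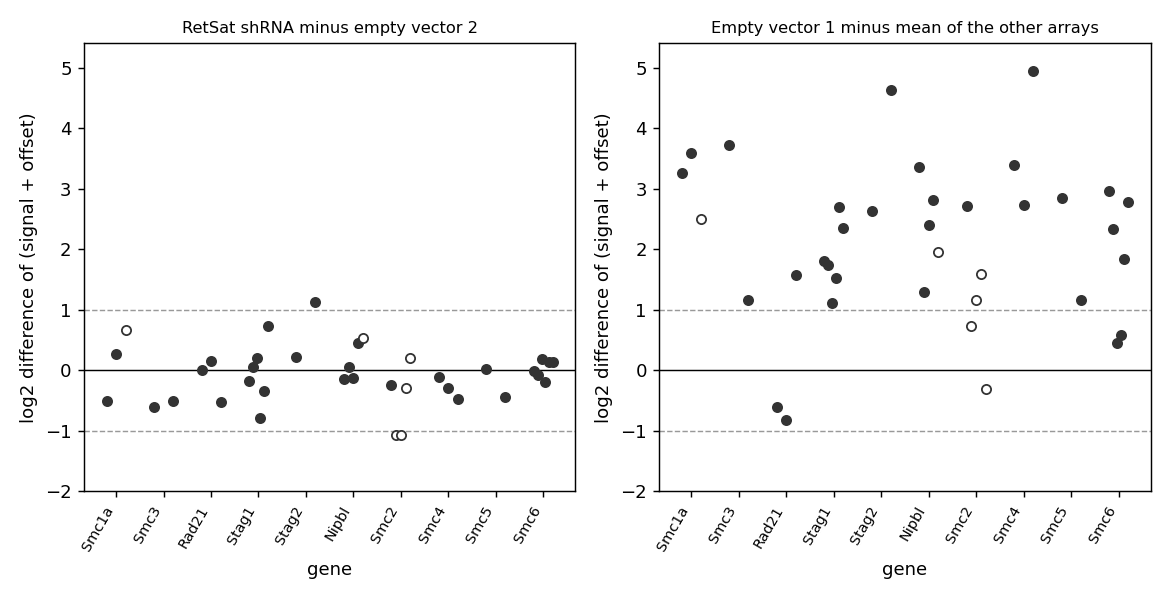
Log2 difference of (signal + offset) of RetSat shRNA minus empty vector 2 (left) and of empty vector 1 minus the mean of the other arrays (right), for each probe set by gene. Filled points were tested, open points lay below the filter, and dashed lines mark 2-fold. On the left the points scatter about 0 between -1.07 and 1.12, and on the right all tested points outside Rad21 lie above 0, from 0.45 to 4.94.

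For the comparison the study was built for, RetSat shRNA against the empty vector, none of the 31 tested probe sets of these genes passed the test. In limma's moderated test 0 of 31 had an adjusted p under 0.05 (0% of all tested probe sets), and 0 had an unadjusted p under 0.05 (1.03% of all). With a robust variance prior limma called 0 as well, again 0% of all. The smallest unadjusted p was 0.0656, for a dim Stag1 probe set that read 24.1 on RetSat shRNA against 119.7 and 49.1, and its adjusted p was 1. The fit has 1 residual degree of freedom, from the control arrays that stood apart, and assumes that the lone RetSat shRNA array varies like them. The choice of genes high on empty vector 1 also raises their standard errors, so nothing is read about them from the absence of calls. Retsat itself was not called either, at log2 differences of -2.54 and -1.96 from the control mean for its 2 probe sets. For Smc3 the difference from the control mean was -2.32 with a standard error of 1.24, and for Smc1a it was -2.01 with a standard error of 1.12.

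The size of these differences from the control mean rests on empty vector 1. The median log2 difference of the 31 probe sets was -1.22 against the control mean, -2.46 against empty vector 1 and -0.08 against empty vector 2, beside 0.02, 0.05 and -0.01 over all tested probe sets. By the rule of at least 2-fold from both controls in the same direction, 0 of the 31 were higher (0.149% of all) and 0 were lower (0.932% of all). RetSat shRNA lay below both controls for 17 probe sets (29.2% of all) and above both for 2, both of Rad21 (30.8% of all). For the other 12 it lay between them. The choice of genes that are high on empty vector 1 nearly fixes that RetSat shRNA lies below that array.

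Against empty vector 2 alone, which the choice of genes did not use by itself, RetSat shRNA was lower for 17 of the 31 probe sets, beside 51.3% over all. At least 2-fold lower were 0 (1.51% of all) and at least 2-fold higher was 1 (1.17% of all), the dim Stag2 probe set. That call compares readings of 17.4 on RetSat shRNA and 2.5 on empty vector 2, both below the array medians. For 8 of the 31 both arrays read below their medians, so that these passed the filter through empty vector 1, and nothing is read from the counts over the 31. Both Smc3 probe sets, all 3 of Smc4 and the bright one of Smc2 were on the lower side, from -0.10 to -0.61. Both of Stag2 were on the higher side, at 0.21 and 1.12. Smc1a, Rad21, Stag1, Nipbl, Smc5 and Smc6 had tested probe sets on both sides. The second Smc3 and the third Smc4 probe sets are among those that read below the medians on both arrays. With 1 array on each side, no test of these differences was possible.

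**Figure D3:**
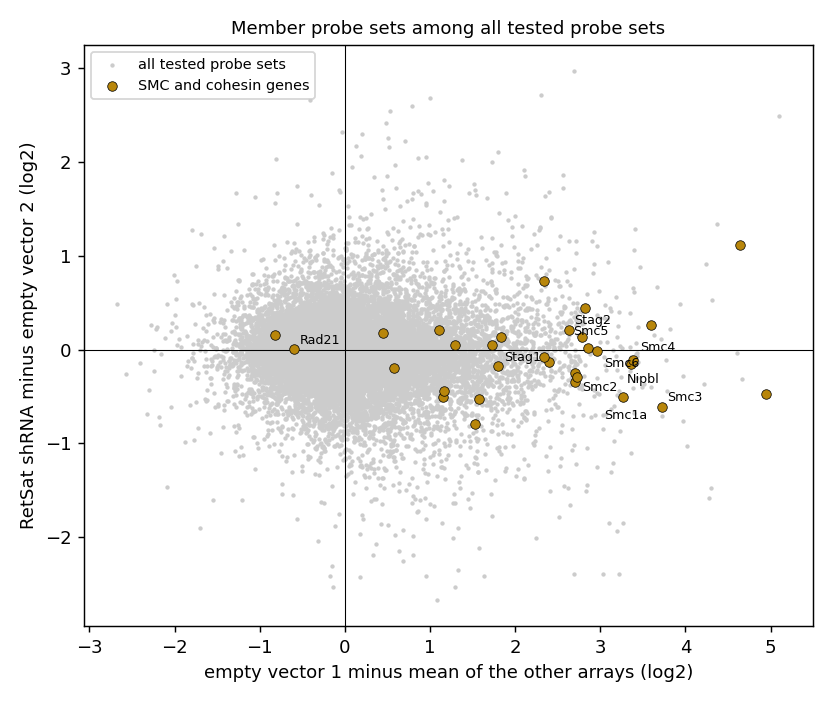
Each tested probe set by its log2 difference of empty vector 1 from the mean of the other arrays (horizontal) and of RetSat shRNA from empty vector 2 (vertical), with all 19518 in grey and the 31 of the SMC and cohesin genes in gold. The brightest probe set of each gene is named, and the gold points spread far along the horizontal axis, to 4.94, with vertical values between -0.79 and 1.12.

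The non-SMC subunits of condensin split into those that followed the ATPases and those that did not. By brightest probe sets, Ncapg, Ncapd3 and Ncapg2 were at least 2-fold higher on empty vector 1 than on both other arrays. Ncapd2, Ncaph and Ncaph2 were near level by theirs. For Ncapg, a condensin I subunit, the brightest probe set read 133.4 on RetSat shRNA, against 927.1 and 114.2 on empty vectors 1 and 2. The condensin II subunit Ncapg2 read 117.0 against 677.0 and 150.2. The kleisin Ncaph read 1674.6 on RetSat shRNA against 1326.0 and 1608.4, and the condensin II kleisin Ncaph2 read 1152.3 against 1239.2 and 1289.1. This Ncaph probe set, whose name marks possible cross-hybridisation, was lowest on empty vector 1, as the brightest Rad21 probe set was. The other Ncaph probe set was not, at 497.4 on RetSat shRNA against 604.7 and 605.7. A dimmer Ncapd2 probe set was highest on RetSat shRNA, at 82.0 against 44.7 and 29.3. By brightest probe sets, 3 of 6 were at least 2-fold higher on empty vector 1 (7.92% of all tested genes) and 0 were lower (1.86%).

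Regulators of cohesin were divided as well, with 5 of 12 genes at least 2-fold higher on empty vector 1 than on both other arrays (7.92% of all tested genes) and 0 at least 2-fold lower (1.86%). Pds5a and Pds5b, which bind cohesin and regulate its release, read 196.5 and 130.4 on RetSat shRNA, against 792.6 and 576.6 on empty vector 1 and 142.5 and 130.9 on empty vector 2. The acetyltransferases Esco1 and Esco2, which modify Smc3, read 97.0 and 40.3 on RetSat shRNA, against 344.0 and 152.1 on empty vector 1 and 60.6 and 32.9 on empty vector 2. The centromeric protector Sgo1 read 188.7 against 431.8 and 139.5. The others, Mau2 (the partner of Nipbl), Wapl (the release factor), Cdca5 (sororin), Hdac8 (which deacetylates Smc3), Espl1 (separase), Pttg1 (securin) and Ctcf (which marks loop anchors), were within 2-fold of at least 1 other array by their brightest probe sets. A dimmer Wapl probe set was not, at 158.9 on RetSat shRNA against 701.4 and 215.9. Mau2 read 244.7 on RetSat shRNA against 271.0 and 242.3, and thus did not share the difference of Nipbl.

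By brightest probe sets, 1 of 6 tested partners of Smc5 and Smc6 was at least 2-fold higher on empty vector 1 than on both other arrays (7.92% of all tested genes) and 0 were at least 2-fold lower (1.86%). The higher one was Slf1, which helps to recruit the complex to DNA lesions, at 77.3 on RetSat shRNA against 211.3 and 74.1. The subunits Nsmce1 and Nsmce3 were lowest on empty vector 1, with Nsmce1 at 1314.4 on RetSat shRNA against 909.6 and 1359.1. A dimmer Nsmce4a probe set was at least 2-fold lower there, at 147.3 on RetSat shRNA against 49.5 and 161.8, whereas the brighter one read 1285.8 against 1633.4 and 1122.5. Nsmce2, a SUMO ligase, read 447.6 against 712.2 and 408.7. The meiotic forms Smc1b and Rec8 never exceeded 7.5, Stag3 reached 32.2 on empty vector 1 alone, and Rad21l was not analysed here. The noncanonical SMC protein Smchd1, known for its part in X inactivation, read 200.4 on RetSat shRNA against 1066.6 and 195.5.

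**Figure D4:**
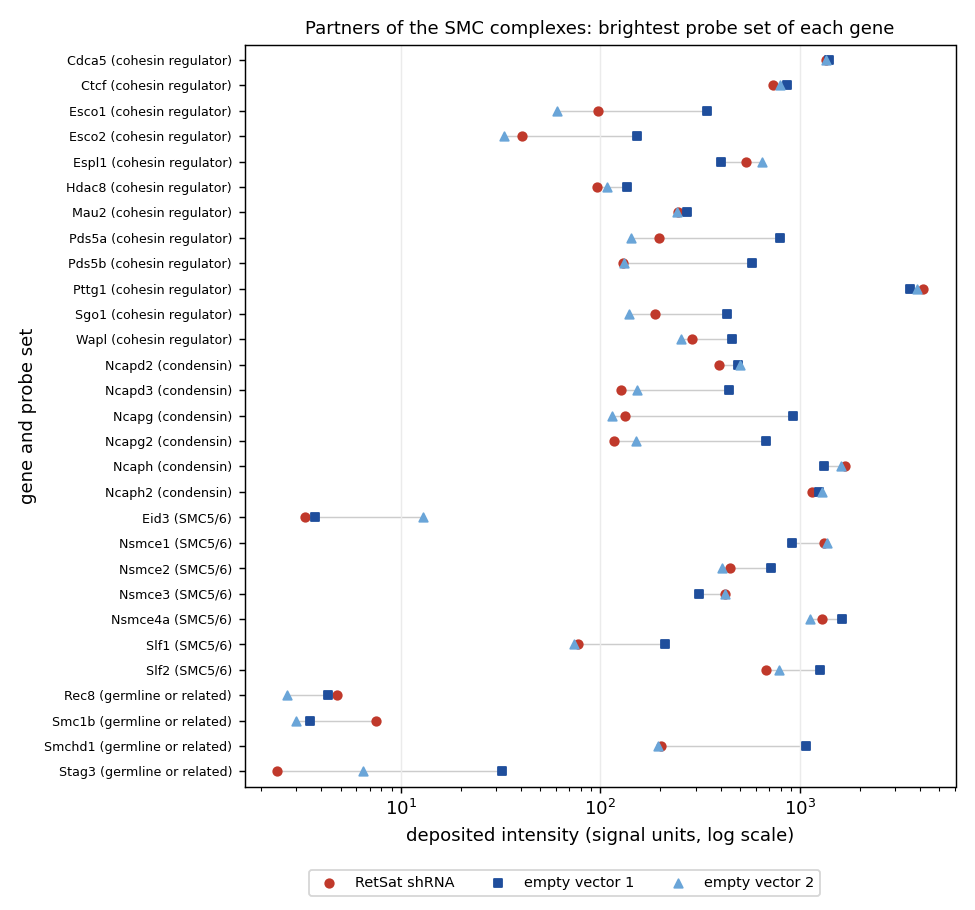
Deposited intensity (signal units, log scale) of the brightest probe set of each partner gene on the 3 arrays, by complex. Empty vector 1 lies apart on the right for Pds5a, Pds5b, Esco1, Esco2, Sgo1, Ncapg, Ncapd3, Ncapg2, Slf1, Smchd1 and the dim Stag3, while Cdca5, Mau2 and Ncaph2 have their 3 points nearly together.

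Over all partner lists, 25 genes with 47 probe sets were tested, and in limma 0 were called against the empty vector (0% of all tested probe sets). Of the 47 probe sets 1, the dimmer one of Ncapg, was at least 2-fold below both controls (0.932% of all), while the brighter Ncapg probe set was not. The dimmer one read 1.2 on RetSat shRNA, near the floor, against 193.2 and 33.3. RetSat shRNA lay below both controls for 9 of the 25 brightest probe sets (25.4% of all tested genes) and above both for 2 (34.4%). None was at least 2-fold lower (0.498%) or higher (0.0922%) than both. Empty vector 1 was the highest array for 18 of the 25 (34.2%) and the lowest for 5 (52.6%). The median log2 difference of RetSat shRNA from empty vector 2 was 0.01, beside 0.00 over all tested genes.

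The 5 genes whose pattern over the 3 arrays was most like that of Smc3 were Cenpf, Hsp90b1, Kcnq1ot1, Malat1 and Atm, each by 1 of its probe sets. Likeness was the Euclidean distance between log2 values centred on each probe set's mean, and it ran from 0.0685 for Cenpf to 0.237 for Atm. Cenpf, a kinetochore protein, read 66.0 on RetSat shRNA against 1280.4 and 114.0 on empty vectors 1 and 2. The chaperone Hsp90b1 read 236.7 against 3961.5 and 324.6, and the nuclear noncoding RNA Malat1 read 92.1 against 2067.5 and 162.6. Among the other 9 genes of the SMC set, the closest probe set of Smc1a ranked 13 (distance 0.380), Nipbl 19 and Smc4 20, while Rad21 ranked 632. With 3 arrays many genes can have a like pattern, so these ranks are a description.

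Proliferation markers were divided in the same way. Of the 11 tested, 5 (Mki67, Top2a, Cenpe, Cenpf and Bub1) had their highest signal on empty vector 1, by 2-fold or more from both other arrays, and 0 their lowest by such a margin (7.92% and 1.86% of all tested genes). By smaller margins Cdk1, Aurkb, Birc5 and Plk1 were lowest on empty vector 1 (52.6% of all tested genes were). Ccna2, Cdk1, Aurkb, Plk1, Birc5 and Pcna lay within 2-fold of at least 1 other array. The summed signal of the 11 was 23033.2 on RetSat shRNA, against 33952.4 and 23478.5 on empty vectors 1 and 2. Cdk1, the mitotic kinase, read 4210.1 on RetSat shRNA against 3585.3 and 4165.0. The part of proliferation in the SMC differences was not tested.

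Gene length moved with the signal on empty vector 1 across the array. Ordered by the genomic length of the gene, the share of tested genes at least 2-fold higher on empty vector 1 was 1.44% in the shortest of 4 equal groups, 5.73% and 9.90% in the next and 14.6% in the longest. Across 10827 genes the Spearman correlation of length with the log2 difference was 0.287, given as a description since genes of an array share their hybridisation. The 10 genes had a median length of 51.5 kb, compared with 23.0 kb over all tested genes. Among the 10 genes the correlation was -0.32 by brightest probe sets. The 3′ to 5′ signal ratio of the Actb control, which rises as RNA degrades, was 1.65 on RetSat shRNA, against 1.53 and 1.53 on empty vectors 1 and 2, and that of Gapdh was 0.931 against 0.841 and 0.931. The part of gene length or RNA quality in these differences was not tested.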

How the data were processed

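Biotin-labelled total RNA, extracted with a phenol-based reagent per the labels' protocols, was measured on 3 single-colour arrays. The deposited table holds intensity values of 45101 probe sets on a linear scale. Software, scanner and summary method: not given in the sources used here. The 2% trimmed mean was 250.002 on each array, so the deposited intensities had been scaled before deposit. The number of arrays limits the precision.

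Probe sets were named through the platform annotation (34945 with 1 symbol, 932 with several, 9160 with none, 64 controls), and a lookup by gene ID in GRCm38.p6 changed 0 symbols. Before taking log2, 10.2 was added to each value (the 25th percentile of the table). The fit used limma 3.58.1 (R 4.3.3), lmFit and eBayes, two-sided, over all 19518 probe sets at or above the median mean log2 value, with Benjamini-Hochberg adjustment at 0.05, and was tested on simulated data. Probe sets were fitted singly because the genes were read by probe set. Alternatives were offsets of 1 and 32, other filters, median centring, quantile normalization, 1 probe set a gene, a robust prior and leaving out each control. The genes, lists and rules were chosen with earlier results of these data known. Named genes are the 10 members, Retsat, the partner lists, the markers and the 5 nearest to Smc3. Ccnb1 and Rad21l were not analysed here, and 1 listed marker is not reported.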

Additional observations from a re-analysis of the deposited data

How the results depend on the processing

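No paired analysis was possible because the groups share only the number 2. The count of member probe sets called by limma stayed at 0, as did that of partner genes, under the offsets, filters, scalings, single probe sets and robust prior tried. The count of member probe sets at least 2-fold from both controls, 0 of 31, was 2 with no filter, both dim ones of Smc2, and 1 without empty vector 1 and 27 without empty vector 2. For partner genes this count was 1, and 0 with an offset of 32, with the filter at the 75th percentile and with 1 probe set a gene, 2 with no filter, and 2 and 12 without empty vectors 1 and 2. The count of 1 is the dimmer Ncapg probe set, which a larger offset draws together and the other settings leave out, and leaving out a control sets RetSat shRNA against 1 array. The median log2 difference of the members ran from -1.51 to -1.07 under the other settings, and was -0.08 without empty vector 1 and -2.46 without empty vector 2. Of the single probe sets, 1 of Smc6 turned from -0.092 to 0.0058 with arrays centred and to 0.088 with quantile normalization. All other tested member probe sets kept their direction in the fits over 3 arrays. Without empty vector 1, the 12 with RetSat shRNA between the controls turned from negative to positive, and the others kept their direction. Median centring moved the median over all probe sets of empty vector 1 minus the others from -0.05 to -0.20. All 28 tested probe sets outside Rad21 remained highest on empty vector 1 under both scalings, and the 3 of Rad21 kept their signs. An offset cannot change which array is highest, so the offsets were no check of this. The choice of genes used the same contrast, so nothing is read from it.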
